A study of Arabidopsis thaliana with 18 samples.

Results

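The 11 genes described here had more transcript signal in Arabidopsis thaliana plants without phytochrome B than in plants with it, whether JAZ10 was intact or mutated. They were chosen from these arrays as the genes whose log2 signal was higher by at least 0.5 in phyb than in Col and also by at least 0.5 in jaz10phyb than in jaz10, each taken as the mean of the MeJA and Control groups. Their methyl jasmonate (MeJA) change in Col had to lie within 0.8 of 0, and a set of genes was left out by name. Of the 5689 genes with a probe set of their own that read 50 or more in at least 1 array, 31 met both differences, 16 of those lay outside the Col window, 15 lay inside it, and 4 of the 15 were left out by name. The choice rests on the PHYB differences and on the Col response, so those values are given below as descriptions with no test.

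Phytochrome B is the main receptor of red light in green tissue. In its active form it restrains the PIF transcription factors, which drive elongation and auxin-related genes, and its loss or inactivation gives the growth habit of a plant in the shade. JAZ proteins such as JAZ10 repress jasmonate-responsive transcription, and the hormone acts by having them degraded. The study crossed both mutations with a hormone treatment to ask how the light receptor and JAZ10 bear on the jasmonate response.

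RNA from whole plants was hybridised to 18 single-colour Arabidopsis Gene 1.0 ST arrays. The groups were phyb (phyb-9), Col (wild-type Col-0), jaz10phyb (the jaz10phyb-9 double mutant) and jaz10, each sprayed with MeJA or with water (Control), with 3 arrays in each of the 2 phyb groups and 2 arrays in each other group. All plants were 4 weeks old, grown at 22 °C in short days with 8 h of light and 16 h of dark, given 250 µM MeJA or the water mock, and collected 3 h later. A sample was a pool of 4 or more plants. The labels name the jaz10 allele no further, and they do not say whether pools of a group were grown apart, so the p-values below speak only of how far these pools spread. In whole-plant RNA, fewer cells of a type and less RNA per cell cannot be told apart.

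For 2 arrays of phyb the treatment they resembled was not the one on the label. A MeJA score, the mean log2 signal of 205 genes raised minus that of 96 genes lowered in Col by MeJA (limma calls with a log2 change of 1 or more), centred on the mean of all arrays, was -1.30 in phyb MeJA 3, while phyb MeJA 1 and 2 had 1.15 and 0.52. It was 1.09 in phyb Control 2, while phyb Control 1 and 3 had -1.44 and -1.14. Groups are used as labelled, and summary results on phyb are also given without phyb MeJA 3 and phyb Control 2. PHYB and JAZ10 themselves had no probe set of their own in the annotation and are not analysed here, so the genotype labels were not checked against them. The median signal of an array lay between 14.87 and 17.5. As a check of the tissue, RCA, the activase of the carbon-fixing enzyme, had signals of 2827 to 3508 over the 18 arrays. The light-harvesting gene LHCB4.1 had signals of 525 to 736.5. No gene of the root marker list had a probe set of its own, so root RNA was not checked.

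The 11 genes stood 1.50 to 1.94 times higher in phyb than in Col and 1.44 to 2.07 times higher in jaz10phyb than in jaz10. The median difference over the genes was 0.75 on the log2 scale between phyb and Col and 0.69 between jaz10phyb and jaz10, where the medians over all 5689 genes were -0.02 and -0.03. Without the 2 doubtful arrays phyb minus Col had a median of 0.72 and a range of 0.59 to 1.05, against -0.03 over all genes. For 7 of the 11 genes it then moved by less than 0.1, and for the other 4 it was 0.59 for AT4G29270, 0.88 for AT1G24147, 0.69 for AT5G22580 and 0.93 for AT5G03350. All 11 are annotated as protein-coding. ATSBT5.2 (AT1G20160), a subtilisin-like serine protease, is the only one with a symbol in the annotation used here. The other 10 are known here by locus only and are given no function.

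**Figure D1:**
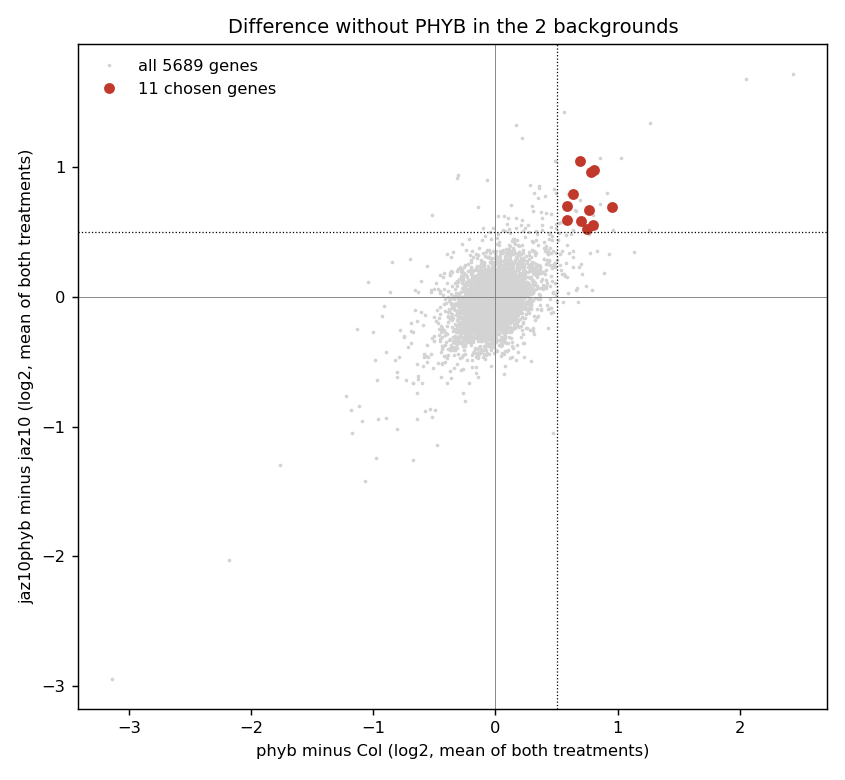
Each grey point is 1 of 5689 genes, with the phyb minus Col difference on the x axis and the jaz10phyb minus jaz10 difference on the y axis, both as log2 means over the 2 treatments. The 11 chosen genes (red) fill a narrow range just past both dotted lines at 0.5, between 0.59 and 0.95 for phyb minus Col and between 0.53 and 1.05 for jaz10phyb minus jaz10, and other genes past both lines lay outside the Col window or were left out by name.

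How far the arrays separated differed among the 11 genes. For 8 of the 11, every phyb array lay above every Col array, which held for 1.05% of all 5689 genes. It also held for 8 in jaz10phyb against jaz10 (1.88% of all genes), and for 7 in both backgrounds (0.316%). For 6 genes all 10 arrays without PHYB lay above all 8 arrays with it, across genotypes and treatments (0.229%). Since the rule chose genes for these very differences, the counts are a description. Without phyb MeJA 3 and phyb Control 2, phyb lay above Col for 10 of the 11 (1.63% of all genes), with ATSBT5.2 the exception. The count was then 7 in both backgrounds (0.404%), and 6 for the 8 arrays left without PHYB above the 8 with it (0.246%).

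The 6 fully separated genes were AT3G22235, AT1G78450, AT1G25141, AT5G22580, AT4G21650 and AT5G24210. AT3G22235 had signals of 191, 230.3 and 236 in phyb MeJA arrays and 187, 159 and 216 in phyb Control arrays, against 117 and 128 in Col MeJA and 134 and 85.8 in Col Control. For AT3G22235 in the jaz10 background the signals were 154 and 228 in jaz10phyb MeJA arrays and 156 and 199 in jaz10phyb Control arrays, against 102 and 107 in jaz10 MeJA and 89.7 and 72.1 in jaz10 Control. The lowest array without PHYB, jaz10phyb MeJA 1, lay above the highest array with it, Col Control 1. The log2 difference was 0.81 between phyb and Col, a 1.75-fold ratio, and 0.98 between jaz10phyb and jaz10, a 1.97-fold ratio. AT1G78450 had signals of 127, 107 and 138 in phyb MeJA arrays and 172, 139 and 152 in phyb Control arrays, against 75.6 and 66.6 in Col MeJA and 102 and 101 in Col Control. For AT1G78450 in the jaz10 background the signals were 136 and 170.1 in jaz10phyb MeJA arrays and 182 and 176 in jaz10phyb Control arrays, against 60.8 and 84.0 in jaz10 MeJA and 99.0 and 77.4 in jaz10 Control. The jaz10phyb Control arrays were its highest and a jaz10 MeJA array its lowest. Its difference was 0.69 between phyb and Col and 1.05 between jaz10phyb and jaz10, and that 2.07-fold ratio was the highest among the 11 genes.

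AT4G21650 read 354, 313 and 398 in phyb MeJA arrays and 460.5, 333 and 416 in phyb Control arrays, against 215 and 242 in Col MeJA and 263 and 209 in Col Control. In the jaz10 background AT4G21650 read 359 and 369 in jaz10phyb MeJA arrays and 412 and 366 in jaz10phyb Control arrays, against 241 and 204 in jaz10 MeJA and 312 and 256 in jaz10 Control. Its groups without PHYB all stayed above those with PHYB by a small margin, with phyb MeJA 2 the lowest of the first and jaz10 Control 1 the highest of the others. The differences were 0.70 for phyb minus Col and 0.58 for jaz10phyb minus jaz10. AT5G24210 read 149, 146 and 168 in phyb MeJA arrays and 223, 153 and 188 in phyb Control arrays, against 97.9 and 94.2 in Col MeJA and 111 and 99.0 in Col Control. In the jaz10 background AT5G24210 read 128 and 120.2 in jaz10phyb MeJA arrays and 139.9 and 113 in jaz10phyb Control arrays, against 84.9 and 87.2 in jaz10 MeJA and 90.7 and 82.7 in jaz10 Control. The phyb arrays of this gene lay above the jaz10phyb arrays as well, with jaz10phyb minus phyb at -0.44 on the log2 scale, and the difference was 0.75 for phyb minus Col and 0.53 for jaz10phyb minus jaz10.

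AT1G25141 gave signals of 98.5, 75.9 and 75.3 in phyb MeJA arrays and 73.8, 87.0 and 92.7 in phyb Control arrays, against 52.7 and 55.1 in Col MeJA and 55.8 and 56.8 in Col Control. Signals of AT1G25141 in the jaz10 background were 104 and 66.6 in jaz10phyb MeJA arrays and 85.1 and 103 in jaz10phyb Control arrays, against 56.0 and 61.9 in jaz10 MeJA and 44.6 and 54.2 in jaz10 Control. Its Col arrays lay within a few units of each other, and the differences were 0.59 for phyb minus Col and 0.70 for jaz10phyb minus jaz10. AT5G22580 gave signals of 67.3, 67.4 and 53.8 in phyb MeJA arrays and 55.3, 48.0 and 64.1 in phyb Control arrays, against 38.5 and 36.0 in Col MeJA and 39.5 and 41.6 in Col Control. Signals of AT5G22580 in the jaz10 background were 54.0 and 56.3 in jaz10phyb MeJA arrays and 54.7 and 73.4 in jaz10phyb Control arrays, against 30.9 and 40.2 in jaz10 MeJA and 41.0 and 44.3 in jaz10 Control. AT5G22580 reached the signal minimum of 50 in no array with PHYB and in all arrays without it but phyb Control 2. Its differences were 0.59 and 0.60, the closest pair among the 11 genes.

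In the remaining 5 genes some arrays overlapped. AT4G29270 measured 31.8, 38.2 and 53.9 in phyb MeJA arrays and 38.1, 51.3 and 31.2 in phyb Control arrays, against 26.8 and 20.6 in Col MeJA and 23.7 and 20.4 in Col Control. In jaz10phyb AT4G29270 measured 67.3 and 43.6 after MeJA and 58.8 and 47.5 in Control arrays, against 25.5 and 25.5 in jaz10 MeJA and 38.8 and 20.7 in jaz10 Control. It was separated within each background, but the lowest phyb arrays lay below the higher jaz10 Control array. Its highest phyb values came from phyb MeJA 3 and phyb Control 2, so that phyb minus Col was 0.78 with all arrays and 0.59 without them, and jaz10phyb minus jaz10 was 0.97.

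AT1G35710 measured 84.8, 114 and 142 in phyb MeJA arrays and 166, 73.1 and 151 in phyb Control arrays, against 46.4 and 51.4 in Col MeJA and 80.7 and 65.6 in Col Control. In jaz10phyb AT1G35710 measured 71.3 and 111 after MeJA and 108 and 117 in Control arrays, against 41.0 and 41.8 in jaz10 MeJA and 90.2 and 91.1 in jaz10 Control. In Col and jaz10 its low values were those of the MeJA arrays, and within a treatment the groups overlapped only through phyb Control 2. The difference was 0.95 for phyb minus Col, 1.05 without the 2 doubtful arrays, and 0.69 for jaz10phyb minus jaz10. ATSBT5.2 measured 54.9, 68.0 and 92.1 in phyb MeJA arrays and 109, 64.9 and 104 in phyb Control arrays, against 40.4 and 41.0 in Col MeJA and 68.8 and 59.0 in Col Control. In jaz10phyb ATSBT5.2 measured 71.9 and 80.5 after MeJA and 98.8 and 125 in Control arrays, against 47.6 and 45.7 in jaz10 MeJA and 58.7 and 59.7 in jaz10 Control. The protease gene was separated in the jaz10 background, while 3 phyb arrays, phyb MeJA 1 and 2 and phyb Control 2, lay below the higher Col Control array. Its differences were 0.63 and 0.80.

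AT1G24147 measured 52.1, 82.9 and 67.2 in phyb MeJA arrays and 79.7, 38.6 and 50.6 in phyb Control arrays, against 36.1 and 31.2 in Col MeJA and 43.9 and 29.4 in Col Control. In jaz10phyb AT1G24147 measured 44.9 and 55.4 after MeJA and 67.2 and 44.9 in Control arrays, against 23.5 and 30.6 in jaz10 MeJA and 46.2 and 33.9 in jaz10 Control. The overlap came from phyb Control 2 and from 1 array of each jaz10phyb group, and the differences were 0.77 and 0.67. AT5G03350 measured 32.4, 83.2 and 47.9 in phyb MeJA arrays and 43.0, 33.5 and 64.3 in phyb Control arrays, against 25.2 and 22.7 in Col MeJA and 31.3 and 29.9 in Col Control. In jaz10phyb AT5G03350 measured 53.6 and 64.4 after MeJA and 42.0 and 39.6 in Control arrays, against 45.7 and 26.6 in jaz10 MeJA and 37.1 and 26.5 in jaz10 Control. The phyb MeJA arrays of AT5G03350 had the widest spread of any group of the 11 genes (SD of 0.67 on the log2 scale, n = 3), and its differences were 0.80 and 0.55. Both jaz10phyb Control arrays lay below the higher jaz10 MeJA array. The annotation overlaps AT5G03350 with its neighbour AT5G03345, which had a probe set of its own and differences of 0.07 and -0.08.

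**Figure D2:**
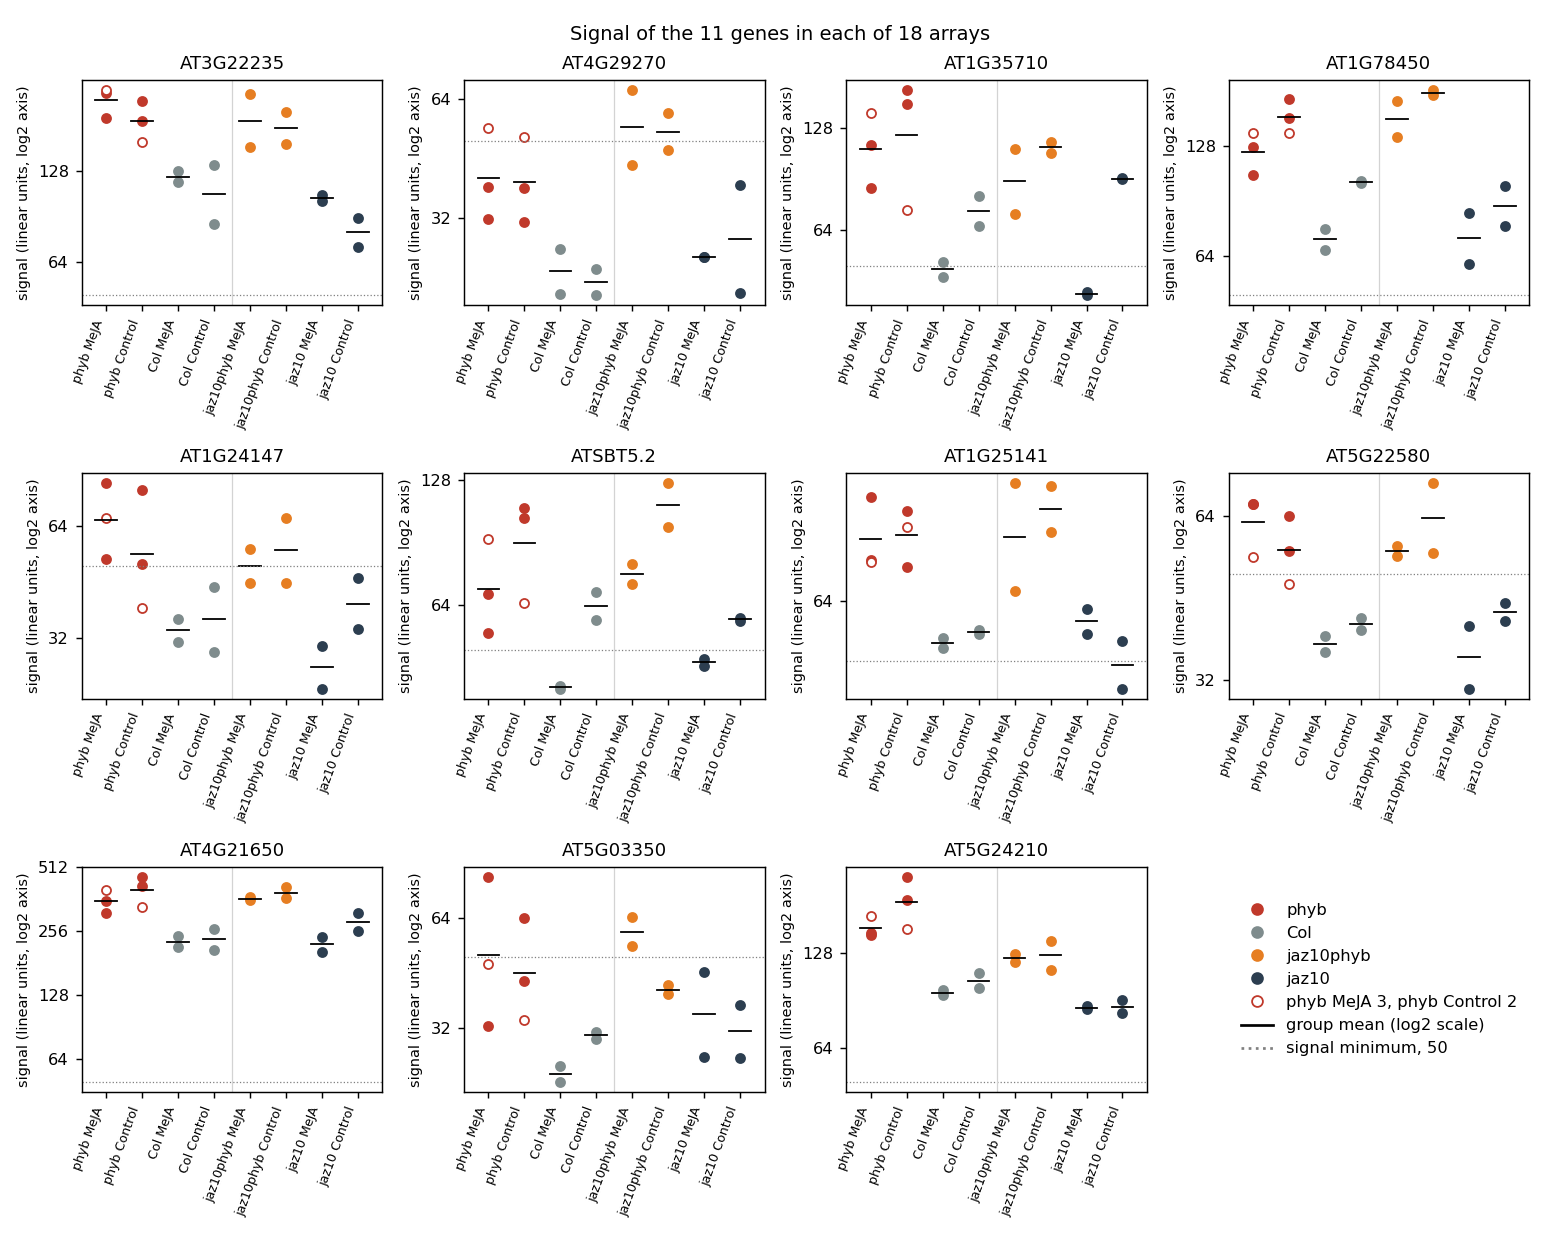
Signal of each of the 11 genes in the 18 arrays (points; linear units on a log2 axis), with the mean of each group on the log2 scale (bars) and the signal minimum of 50 (dotted). Red and orange groups lack PHYB, grey and dark blue groups carry it, and open red points are phyb MeJA 3 and phyb Control 2; in AT3G22235, AT1G78450, AT1G25141, AT5G22580, AT4G21650 and AT5G24210 every red and orange point lies above every grey and blue one.

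The signal minimum shaped the membership. AT4G29270, AT1G24147, AT5G22580 and AT5G03350 reached 50 only in arrays without PHYB, so these 4 could enter only by being higher there. AT3G22235, AT1G78450, AT4G21650 and AT5G24210 lay above 50 in all 18 arrays, and AT1G35710, ATSBT5.2 and AT1G25141 in some arrays with PHYB. AT4G21650, AT5G03350 and AT5G24210 lay just inside the threshold, with a smaller difference of 0.58, 0.55 and 0.53. AT4G23680 (0.495 for phyb minus Col), AT1G80130 (0.494 for phyb minus Col) and AT1G54200 (0.491 for jaz10phyb minus jaz10) lay just outside it. AT1G72416 had differences of 0.64 and 0.52 and was outside only through its Col MeJA change of -0.804.

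The rule took the mean of the MeJA and Control differences, so the parts within each treatment are described with no test. Taken within MeJA arrays and within Control arrays, in both backgrounds, all 4 differences were above 0 in 11 of the 11 genes. The choice made that likely, and no share over all genes is given for it or for the next counts. All 4 differences reached 0.5 for AT3G22235, AT4G29270, AT1G78450 and AT5G24210, and without the doubtful phyb arrays for 6 genes, with ATSBT5.2 and AT5G22580 added. After MeJA the median difference over the 11 genes was 0.77 for phyb minus Col and 0.74 for jaz10phyb minus jaz10, and in Control plants it was 0.59 and 0.56. The medians of all genes lay between -0.04 and -0.01 in these comparisons. The MeJA and Control values of phyb include 1 array each whose score opposed its label, and without these arrays the order turned, to a median phyb minus Col of 0.71 after MeJA and 0.76 in Control plants (-0.05 and -0.01 over all genes). The difference phyb minus Col was larger after MeJA in 8 of the 11 genes with all arrays and in 5 of the 11 without the 2. AT5G24210 then had 0.61 after MeJA and 0.97 in Control plants, and AT4G21650 had 0.54 and 0.90. The difference jaz10phyb minus jaz10 was larger after MeJA in 7 of the 11.

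Single genes differed in how the treatments compared. AT1G35710 differed by 1.08 between jaz10phyb and jaz10 after MeJA and by 0.30 in Control plants, the widest gap between treatments, while between phyb and Col it differed by 1.17 and 0.74. Without the doubtful arrays the phyb minus Col values of AT1G35710 were 0.99 after MeJA and 1.11 in Control plants, so the order of treatments in that background turned with those arrays. AT5G03350 differed by 1.05 after MeJA and 0.55 in Control plants between phyb and Col, and by 0.74 and 0.37 between jaz10phyb and jaz10, and its phyb minus Col values without the doubtful arrays were 1.09 and 0.76. AT1G25141 had its larger difference in Control plants of the jaz10 background, with 0.49 after MeJA and 0.91 in Control plants. AT3G22235 had 0.84 and 1.12 there. AT1G78450 had similar values under both treatments in that background, 1.08 and 1.02.

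**Figure D3:**
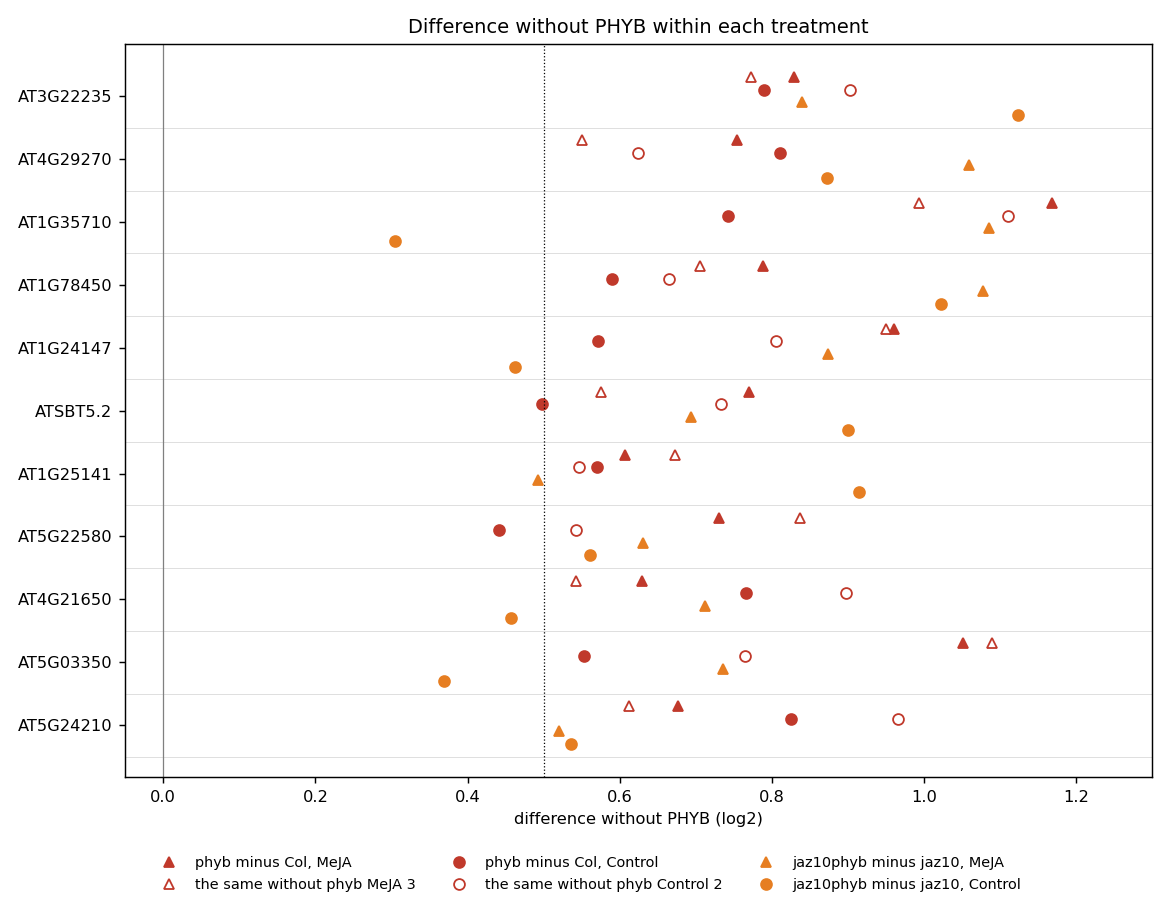
Difference without PHYB of each gene (log2) within the MeJA arrays (triangles) and within the Control arrays (circles), for phyb minus Col (red) and jaz10phyb minus jaz10 (orange), with open red symbols for phyb without phyb MeJA 3 or phyb Control 2. All points lie right of 0, the lowest being AT1G35710 in Control plants of the jaz10 background at 0.30, and most lie right of the dotted line at 0.5.

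Mean signals with the jaz10 mutation lay above those without it for some of the genes and below for others. The difference of jaz10phyb from jaz10 was the larger in 6 genes and that of phyb from Col in 5, and without the doubtful arrays in 5 and 6. Over the 11 genes, jaz10phyb minus phyb had a median of 0.01 (-0.44 for AT5G24210 to 0.42 for AT4G29270; without the doubtful arrays a median of -0.09, and -0.47 to 0.61 for the same 2 genes), and jaz10 minus Col a median of -0.00 (-0.32 for AT3G22235 to 0.28 for AT5G03350). The medians over all genes were -0.03 and -0.02. These comparisons share their arrays with the choice of the genes and were not tested.

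Averaged over the 11 genes, each array fell on the side of its PHYB genotype. The genes were chosen for that difference, so this is a description. The mean log2 signal relative to the Col arrays lay between 0.50 and 0.90 in the 10 arrays without PHYB and between -0.13 and 0.21 in the 8 arrays with it. This included both doubtful arrays, with 0.83 in phyb MeJA 3 and 0.50, the lowest of the 10, in phyb Control 2. In phyb MeJA 3, 11 of the 11 genes lay above all 4 Col arrays (16.9% of all genes did), and in phyb Control 2, 8 of the 11 did (17.1%). The rule used those arrays too, so it was applied again without them. That gave 12 genes, the same 11 and AT1G80130. In the arrays then left out, 12 of the 12 lay above all Col arrays in phyb MeJA 3 and 8 of the 12 in phyb Control 2, with a median excess over the Col mean of 0.79 and 0.41, where the median over all genes was 0.00 and -0.00. The Col arrays of this comparison are the ones the rule used. The signal minimum and the choice of probe set still took in the 2 left-out arrays. The counts in those arrays are therefore a description and no separate evidence. Within genotypes with PHYB, the lowest array means were those of the MeJA arrays, and the 2 arrays without PHYB lowest in these genes had positive MeJA scores of 1.09 and 1.15.

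**Figure D4:**
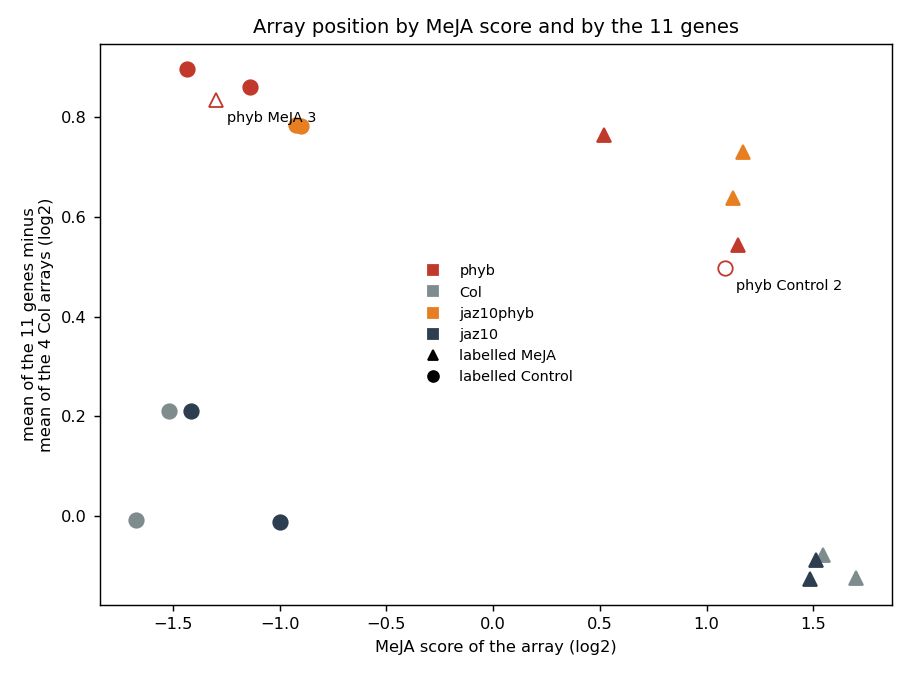
MeJA score of each array (x axis, log2) against the mean of the 11 genes relative to the 4 Col arrays (y axis, log2), with colours for genotype, triangles for arrays labelled MeJA and circles for Control. The 10 phyb and jaz10phyb arrays lie at 0.50 or higher and the 8 Col and jaz10 arrays at 0.21 or lower, and the open symbols mark phyb MeJA 3 and phyb Control 2, which lie on the x axis with the arrays of the other treatment.

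The MeJA changes in the 3 mutants were not used by the rule and were tested with limma over all 5689 genes, with calls at a Benjamini-Hochberg adjusted p under 0.05. With all 18 arrays, 0 of the 11 genes were called in phyb (0% of all genes), 0 in jaz10 (8.74% of all genes), and 0 in jaz10phyb (0.0352% of all genes). The jaz10 calls over all genes were 251 higher and 246 lower, and 385 and 140 with array medians set equal. At an unadjusted p under 0.05 there were 0 of the 11 genes in phyb (3.48% of all genes), 1 in jaz10 (29%) and 1 in jaz10phyb (23.2%). The median change of the 11 genes was -0.03 in phyb (all genes -0.03), -0.27 in jaz10 (-0.05) and -0.14 in jaz10phyb (-0.08), with 6, 8 and 8 of the 11 below 0. In phyb without the 2 doubtful arrays the median was -0.02 (all genes -0.05), with 6 of the 11 below 0. In Col, whose MeJA change the rule held within its window, the changes lay between -0.63 and 0.19 with a median of -0.12.

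AT1G35710 came closest to a call. Its signals in jaz10 were 41.0 and 41.8 after MeJA, against 90.2 and 91.1 in Control plants, with no overlap and little spread. The change was -1.11 ± 0.33 (SE, n = 2 arrays per group, limma adjusted p = 0.0504), and it was -1.11 ± 0.18 with an adjusted p of 0.000573 in the limma fit without phyb MeJA 3 and phyb Control 2, which share only the estimate of spread with jaz10. In that fit 24.6% of all genes were called, 14.4% as lower. The gene was also called in the fit over all other arrays without any 1 of phyb Control 1, phyb Control 2, phyb MeJA 1 or phyb MeJA 3 (limma adjusted p = 0.0400, 0.00788, 0.0419 and 0.0300). In jaz10phyb its change was -0.33 ± 0.33 (n = 2 per group, limma adjusted p = 0.577), and in Col it was -0.57 as a description.

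Without the 2 doubtful arrays, 3 of the 11 genes fell after MeJA in phyb, where 16.3% of all genes were called, 9.37% as lower. ATSBT5.2 gave 54.9 and 68.0 in phyb MeJA 1 and 2, against 109 and 104 in phyb Control 1 and 3, a change of -0.79 ± 0.13 (SE, n = 2 per group, limma adjusted p = 0.00126). AT1G35710 changed by -0.68 ± 0.18 (limma adjusted p = 0.0225) and AT5G24210 by -0.48 ± 0.12 (limma adjusted p = 0.0167). With all arrays the same changes were -0.36 ± 0.20, -0.14 ± 0.27 and -0.27 ± 0.13 (n = 3 per group, limma adjusted p of 0.962, 0.977 and 0.962). Since it was this response that set the 2 arrays apart, the calls without them do not stand as separate evidence of it. ATSBT5.2 remained called when any further single array was left out, whereas AT1G35710 and AT5G24210 both lost the call without phyb Control 1 or phyb MeJA 1, AT1G35710 also without phyb Control 3 and AT5G24210 also without phyb MeJA 2.

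In jaz10phyb, the protease gene ATSBT5.2 gave 71.9 and 80.5 after MeJA, against 98.8 and 125 in Control plants. Its change was -0.54 ± 0.24 with all arrays (SE, n = 2 per group, limma adjusted p = 0.197) and -0.54 ± 0.13 in the limma fit without the 2 phyb arrays (adjusted p = 0.0120, with 18.6% of all genes called, 11.2% as lower). Without jaz10phyb Control 2 or jaz10phyb MeJA 1 as well the call was lost, and without jaz10phyb MeJA 2 AT1G35710 was called beside it (-0.65, limma adjusted p = 0.0340). AT5G24210 had -0.02 ± 0.15 in jaz10phyb and -0.01 ± 0.15 in jaz10 (limma adjusted p = 0.941 and 0.981). ATSBT5.2 changed by -0.34 ± 0.24 in jaz10 (limma adjusted p = 0.382) and by -0.63 in Col.

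The other 8 genes did not pass in any of the 3 mutants, with all arrays or without the 2 doubtful ones. With all arrays AT1G78450 changed by -0.31 ± 0.15 in phyb, -0.23 ± 0.18 in jaz10phyb and -0.29 ± 0.18 in jaz10, lower in all 3 but with limma adjusted p of 0.311 or higher. AT4G21650 likewise had -0.18 ± 0.14, -0.09 ± 0.17 and -0.35 ± 0.17, with limma adjusted p of 0.209 or higher. In phyb without the 2 doubtful arrays they had -0.47 ± 0.17 and -0.39 ± 0.14 (limma adjusted p = 0.0751 and 0.0801). AT3G22235 was above 0 in all 3, at 0.23 ± 0.19, 0.09 ± 0.23 and 0.37 ± 0.23 (limma adjusted p of 0.314 or higher). AT5G22580 had 0.17 ± 0.14 in phyb, -0.20 ± 0.17 in jaz10phyb and -0.27 ± 0.17 in jaz10. AT1G24147 had 0.29 ± 0.26, -0.14 ± 0.32 and -0.55 ± 0.32. The values of AT4G29270 lay between -0.15 and 0.04, and its standard errors of 0.26 to 0.31 are wider than any of them. AT1G25141 had -0.03 ± 0.16, -0.17 ± 0.20 and 0.25 ± 0.20, and AT5G03350 had 0.16 ± 0.30, 0.52 ± 0.37 and 0.15 ± 0.37. In phyb without the 2 doubtful arrays the remaining 6 genes lay between -0.02 for AT5G03350 and 0.18 for AT5G22580. The MeJA arrays of AT1G25141 lay above the Control arrays in jaz10 and below them in Col, a pattern shared by 1.18% of all genes. Those of AT5G03350 did so in jaz10phyb and Col (1.05% of all genes). Neither pattern was tested as a difference.

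**Figure D5:**
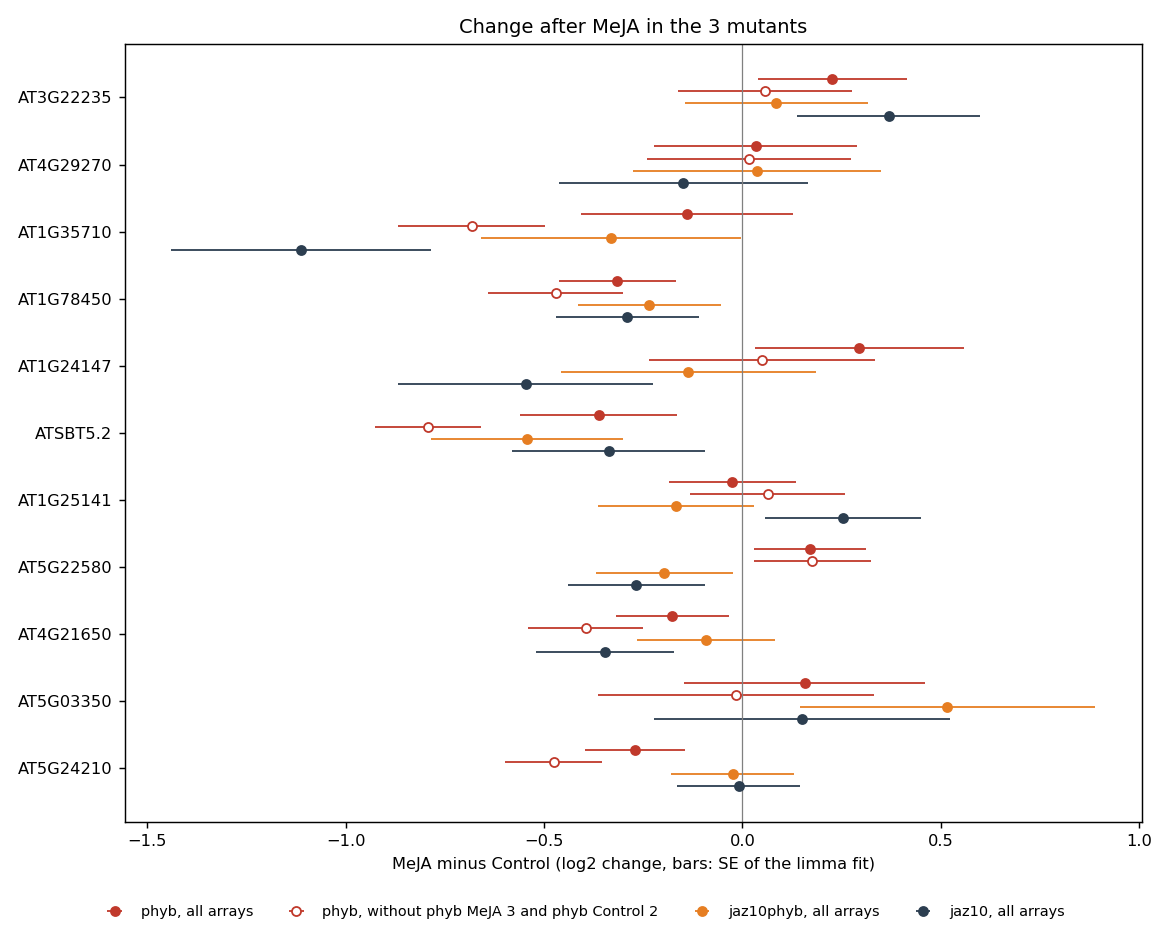
Change after MeJA (log2, MeJA minus Control, points) with the standard error of the limma fit (bars) for each gene in phyb (red), jaz10phyb (orange) and jaz10 (dark blue), from the fit to all 18 arrays, and in phyb without phyb MeJA 3 and phyb Control 2 (open red). AT1G35710 in jaz10 at -1.11 lies farthest from 0, and leaving out the 2 arrays moves AT1G35710, ATSBT5.2 and AT5G24210 in phyb to -0.68, -0.79 and -0.48.

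Whether the MeJA response differed between jaz10phyb and jaz10 was tested as an interaction in the same limma model. It was called for 0 of the 11 genes and for 0% of all genes (0 of the 11 and 2.43% at an unadjusted p under 0.05). Without the 2 phyb arrays it was again 0 and 0%, with 1 of the 11 and 4.8% of all genes at an unadjusted p under 0.05. The differences in response lay between -0.42 for AT1G25141 and 0.78 for AT1G35710, with a median of 0.07 against -0.03 over all genes. For AT1G35710 the 95% interval of the difference, not adjusted for the number of genes, was -0.22 to 1.78 with all arrays, and 0.22 to 1.34 without the 2 phyb arrays (limma adjusted p of 1 and 0.989). The widest interval was that of AT5G03350, -0.77 to 1.50 with all arrays, so a difference in response of either sign would have been missed there.

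The genes varied among themselves within groups. After subtracting the group means, the 55 pairs of genes had a median correlation of 0.20 over the 18 arrays, with 37 above 0. Without the 2 doubtful arrays the median over 16 arrays was 0.12, with 31 above 0, and no value over pairs of other genes is given. These correlations are descriptions over arrays that share their hybridisation and RNA pool, and with few arrays per group they are loose. AT1G35710 and the protease gene ATSBT5.2 had the highest, 0.92, and 0.75 without the 2 arrays. AT3G22235 with AT1G35710 (0.70 and 0.78) and AT1G24147 with AT5G24210 (0.76 and 0.73) were also high in both. AT1G24147 and AT1G25141 ran against each other, at -0.64 and -0.71.

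The genes did not sit side by side in the genome. By the TAIR10.1 annotation, 5 lay on chromosome 1, 1 on chromosome 3, 2 on chromosome 4 and 3 on chromosome 5, and 0 on chromosome 2, which held 14.7% of the tested genes, against 25.4% on chromosome 1. No member was the neighbour of another. Of their 22 nearest genes on either side, 5 were tested, and 0 of these 5 passed 0.5 in both backgrounds. AT1G24145, next to AT1G24147, came nearest, with 1.14 for phyb minus Col and 0.35 for jaz10phyb minus jaz10. AT1G24145 read 51.2, 77.9 and 58.0 in phyb MeJA and 75.2, 49.7 and 57.3 in phyb Control arrays, against 30.1 and 31.1 in Col MeJA and 20.4 and 28.0 in Col Control, with no overlap. In jaz10phyb it read 54.2 and 48.1 after MeJA and 38.5 and 30.7 in Control plants, against 26.3 and 34.3 in jaz10 MeJA and 32.6 and 39.1 in jaz10 Control, where the Control groups overlapped. The other tested neighbours differed by between -0.08 and 0.33.

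Few genes of the phytochrome pathway could be set beside them. There were 342 genes in 11 lists of light, growth hormone, cell wall, flowering, clock, senescence, defence, photosynthesis, root and nutrient functions. Of these, 38 had a probe set of their own, 19 were tested and 0 are among the 11 genes. Those that met both differences, HAT2 and IAA29, were left out by name, so the 0 was set by the rule. The limma test of the PHYB differences called 1.25% of all genes between phyb and Col (25 higher and 46 lower) and 1.04% between jaz10phyb and jaz10 (25 and 34). With array medians set equal these were 47 and 39 and 29 and 21, and with quantile normalization 40 and 44 and 30 and 23. Without the 2 doubtful arrays 3.96% and 3.59% of all genes were called. Of the 41 genes listed for phytochrome signalling and shade avoidance, 2 were tested. HAT2, a homeodomain-leucine zipper transcription factor related to the shade-induced ATHB2, met both differences of the rule, so its values are given with no test. It stood 0.59 higher in phyb than in Col (0.68 without the 2 arrays) and 0.79 higher in jaz10phyb than in jaz10. Its signals were 58.2, 67.2 and 60.5 in phyb MeJA and 93.0, 62.3 and 79.8 in phyb Control arrays, against 30.7 and 35.6 in Col MeJA and 63.5 and 61.3 in Col Control. The phyb and Col Control signals of HAT2 overlapped only through phyb Control 2. PIF7, a transcription factor held back by phytochrome B that drives shade elongation, was lower in jaz10phyb than in jaz10 (-0.87 ± 0.14, limma adjusted p = 0.0131), and had -0.49 ± 0.13 between phyb and Col (limma adjusted p = 0.0962, and 0.0206 without the 2 arrays). With all arrays, the PIF7 call between jaz10phyb and jaz10 was lost in some fits without 1 array (limma adjusted p up to 0.0682).

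Of 41 auxin genes 1 was tested, the Aux/IAA repressor gene IAA29, a known shade-responsive gene. It too met both differences of the rule and is described with no test, at 1.26 between phyb and Col (1.49 without the 2 arrays) and 1.34 between jaz10phyb and jaz10. IAA29 reached the signal minimum in phyb Control 1 alone, at 57.4, so it could enter only through a phyb array. Its signals were low, at 5.22 to 11.85 in Col, 5.87 to 8.87 in jaz10 and 13.78 to 26 in jaz10phyb. Those in Col and jaz10 lay below the lowest array median of 14.87, so the differences of IAA29 rest on values near the floor. HAT2, IAA29 and CSLC4, given as CSLC04, are among the names the rule left out. HAT2 also lay outside the Col window, with lower signals in Col MeJA than in Col Control. Of 7 tested cell wall genes, 0 were called with all arrays in either comparison, and without the 2 arrays the glucan synthase gene CSLC4 was higher in phyb than in Col (0.38 ± 0.08, limma adjusted p = 0.0215). Of 4 tested photosynthesis genes, LHCB4.1 was lower in jaz10phyb than in jaz10 (-0.34 ± 0.07, limma adjusted p = 0.0418, and 0.0171 without the 2 arrays). There LHCB4.2 had -0.47 ± 0.13 (limma adjusted p = 0.118, and 0.0263 without the 2 arrays). RCA had -0.11 ± 0.08 and PSAN -0.15 ± 0.11 (limma adjusted p = 0.673 and 0.724). Between phyb and Col 0 of the 4 were called, with all arrays or without the 2. LHCB4.1 had -0.10 ± 0.06 and LHCB4.2 -0.29 ± 0.12 in that comparison with all arrays (limma adjusted p = 0.626 and 0.324). Of 5 tested genes for flowering, the clock, gibberellin and brassinosteroid, and senescence, 0 were called, and no gene of the salicylate, root and nutrient lists was tested.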

How the data were processed

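The deposited table holds intensity values on a linear scale for 38408 probe sets in 18 arrays. Per the submitters' processing notes, the authors used Affymetrix Expression Console. Its version, the summarisation method and the genome build are not stated in the sources at hand. A platform annotation paired 16722 probe sets with 1 gene, 759 with several and 20927 with none, and 16574 of the first were matched to locus names of the TAIR10.1 annotation. Values were taken as log2(value + 1), so fold changes of low signals are understated. For each gene the single-gene probe set with the highest mean was kept if it reached 50 in any array, which left 5689 genes, and each of the 11 genes had 1 such probe set. Probe background was not tested.

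Groups and replicate numbers came from the sample titles. limma 3.58.1 in R 4.3.3 fitted a mean for each of the 8 groups to all 18 arrays (10 residual degrees of freedom), with Benjamini-Hochberg adjustment over the 5689 genes, and was tested on simulated data. Groups of 2 or 3 arrays limit the precision. The members, lists and tests were chosen with earlier results of these data known. All members were named, with the genes just outside the threshold, their neighbours, and tested list genes. The alternatives were another pseudocount, filter, scaling, probe-set rule, a replicate block and each array left out. Leaving out phyb MeJA 3 and phyb Control 2 together, then each further array, was prompted by their MeJA score.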

Additional observations from a re-analysis of the deposited data

Results flagged for a closer look

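In 2 of the 11 genes the MeJA arrays lay all above the Control arrays in a mutant and all below them in Col. AT1G25141 changed by 0.25 on the log2 scale in jaz10 and by -0.0634 in Col, and 1.18% of all 5689 genes showed this pattern between jaz10 and Col. AT5G03350 changed by 0.52 in jaz10phyb and by -0.34 in Col, a pattern found in 1.05% of all genes between jaz10phyb and Col. Neither difference between genotypes was tested, since the rule had used the Col change, and with 2 arrays per group such separation rests on few values.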

How the results depend on the processing

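The number of genes the rule gives moved most with the processing: 6 with a pseudocount of 16, 24 with no filter, 7 with a minimum of 100, 20 with array medians set equal and 17 with quantile normalization, of which 6, 11, 7, 11 and 11 were among the 11. It was 11 with the mean of probe sets, 12 without phyb MeJA 3 and phyb Control 2, and 10 to 16 when 1 array was left out. AT5G03350 was lost in 3 of those 18 omissions, AT5G24210 in 2 and AT5G22580 in 1. Calls after MeJA among the 11 genes in phyb were 3 without both arrays, and then 1 to 3 without a further array (1 without phyb Control 1 or phyb MeJA 1). In jaz10 there was 1 call with a minimum of 100, without both arrays and with the replicate number as a block, and 0 to 1 without a single array. In jaz10phyb there was 1 without both arrays, and then 0 to 2. The response difference between jaz10phyb and jaz10 gave 0 calls throughout. Deviations of same-numbered MeJA and Control arrays correlated at -0.02 to 0.10 in Col, jaz10phyb and jaz10, with little sign of pairing by replicate number. In phyb, which holds the 2 doubtful arrays, the correlations were -0.72 to 0.60. Apart from the jaz10 call the replicate block moved no count of the 11 genes. Changes after MeJA that turned direction were small. AT5G24210 had 0.0843 in jaz10 and 0.0496 in jaz10phyb with array medians equal, and 0.0193 and 0.0094 with quantile normalization. AT1G25141 in phyb had 0.00197 and 0.00228 under the same scalings and 0.0638 without both arrays, where AT5G03350 in phyb had -0.0162. Leaving out 1 array gave in phyb -0.15 to 0.0438 for AT1G25141, -0.51 to 0.0781 for AT1G35710, -0.17 to 0.22 for AT4G29270 and -0.20 to 0.47 for AT5G03350. In jaz10 it gave -0.59 to 0.29 for AT4G29270, -0.23 to 0.53 for AT5G03350 and -0.0743 to 0.0569 for AT5G24210. In jaz10phyb it gave -0.42 to 0.15 for AT1G24147, -0.48 to 0.15 for AT1G25141, -0.20 to 0.37 for AT3G22235, -0.27 to 0.34 for AT4G29270, -0.41 to 0.0122 for AT5G22580 and -0.17 to 0.13 for AT5G24210. In all, 802 of 846 recomputed changes after MeJA kept direction and call. The sign was kept in 542 of 542 recomputed PHYB differences, which their choice at 0.5 or more made likely. The cause of these shifts was not tested.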
